A study of Mus musculus with 23 samples.

Results

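The core circadian clock genes of mouse liver were followed across 3 genotypes of a liver cancer model. They are the 10 genes *Bmal1*, *Clock*, *Npas2*, *Per1*, *Per2*, *Per3*, *Cry1*, *Cry2*, *Nr1d1* and *Nr1d2*. The set follows function, but it was chosen with earlier results of these data known. Matched on the gene symbols of the count table, all 10 were found among its 27179 genes. The RNA came from bulk liver without visible tumors, taken from 15 females, of which 6 were Ctrl, 6 ABpIF/+ and 3 ABpIF/F. All mice carried *Alb-Cre*, which drives Cre from the albumin promoter and so in hepatocytes, and *Trp53* flx/flx. Ctrl mice had WT *Braf* and *Icmt* flx/+. ABpIF/+ mice had the *Braf* CA/+ allele, which gives BRAF V600E after Cre recombination, and *Icmt* flx/+. ABpIF/F mice had *Braf* CA/+ and *Icmt* flx/flx, and these 3 were all the mice of that genotype the study obtained. Strain labels also split the mice. In 5 Ctrl mice the label names a single line, and in Ctrl mouse BG3 and every mutant it names a cross. The genotype labels of the individual mutant mice write BRAF +/+ where the design of the series gives CA/+, so the groups follow the words Ctrl, Het and Hom in those labels. The ABpIF/F mice were of different ages, but the sources used here do not tie an age to a named mouse, nor do they give the time of day at which a liver was taken, and clock genes change with the time of day.

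The circadian clock of liver cells is a feedback loop of transcription. BMAL1 pairs with CLOCK, or with its paralog NPAS2, and the pair activates genes through E-boxes, among them the *Per*, *Cry* and *Nr1d* genes. The PER and CRY proteins then inhibit the pair, while the nuclear receptors REV-ERBα (*Nr1d1*) and REV-ERBβ (*Nr1d2*) repress *Bmal1*, *Npas2* and *Clock* through ROR elements. The activators *Bmal1* and *Npas2* and the *Per* genes therefore peak at roughly opposite times of day. *Per1* is also induced by glucocorticoids and by other acute signals, and *Per2* and *Cirbp* respond to body temperature.

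Elements of the kind that tie the loop together were found in the promoter windows of some members. For each of 5 members whose window holds such an element, 1 stretch is shown. Windows of 250 bases before to 50 bases after the transcript start came from RefSeq on GRCm38.p6, and 9 of the 10 members had at least 1 of 13 windows, *Per2* having no entry. Motifs were searched on both strands and their letters are in capitals. In *Bmal1* the capitals mark the ROR element, in *Per1* the E-box CACGTG, in *Per3* both copies of the D-box TTATGTAA, which binds DBP, TEF and HLF, in *Cry1* the E-box and an E-prime box, and in *Cry2* an E-prime box. The E-prime box CACGTT reads AACGTG from the other strand.
Bmal1, chr7:113207528-113207556, plus strand: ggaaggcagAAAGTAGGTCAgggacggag
Per1, chr11:69098759-69098818, plus strand: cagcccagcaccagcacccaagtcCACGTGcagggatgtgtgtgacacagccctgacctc
Per3, chr4:151044801-151044880, minus strand: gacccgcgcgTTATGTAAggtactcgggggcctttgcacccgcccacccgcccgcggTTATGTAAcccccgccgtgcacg
Cry1, chr10:85185090-85185149, minus strand: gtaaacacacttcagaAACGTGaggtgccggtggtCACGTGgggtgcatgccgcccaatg
Cry2, chr2:92434205-92434264, minus strand: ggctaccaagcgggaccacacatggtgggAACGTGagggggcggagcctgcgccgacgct

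The *Bmal1* ROR element begins 27 bases after the start, and it was found in 1 member and in 0.384% of all 32851 windows. The E-box was found in 2 members, *Per1* and *Cry1*, and in 7.15% of all windows. The E-prime box was found in 3 members, *Cry1*, *Cry2* and *Nr1d1*, and in 4.68% of windows. The D-box, searched as TTATGTAA and TTACGTAA, was found in *Per3* alone among the members and in 1.06% of windows. AGGTCA, the core that the ROR element contains, was found in 4 members and in 16.3% of windows, and the CRE TGACGTCA in 0 members and in 1.79% of windows. The window of *Npas2* held none of these motifs. Counts of members are among the 9 with a window, some of which had several windows, whereas the shares are per window. A match describes the letters in the window, not binding.

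Each mouse had 24742910 to 32262649 counted reads. Levels below are CPM, counts scaled to a common library size by TMM, given as single values or as the lowest, median and highest mouse. The targeted gene *Icmt* went with the labels, with 27.8 to 34.7 CPM in Ctrl, 27.8 to 37.4 in ABpIF/+ and 15.2 to 16.6 in ABpIF/F mice. The labels do not give litters or dates, and the p-values set differences between groups against the spread between these mice. The strain label of 5 Ctrl mice names a single line, whereas that of Ctrl mouse BG3 and of every mutant names a cross, so strain label and genotype can hardly be told apart. A further Ctrl mouse, malpa387, stood apart from the other 5 in most clock genes, and results whose call or direction changes without it are given both ways. It was singled out for its clock gene values, after they were seen, so values without it are descriptions and not independent tests. Being bulk tissue, these livers do not show whether a lower level comes from fewer cells of a type or from less RNA per cell.

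**Figure D1:**
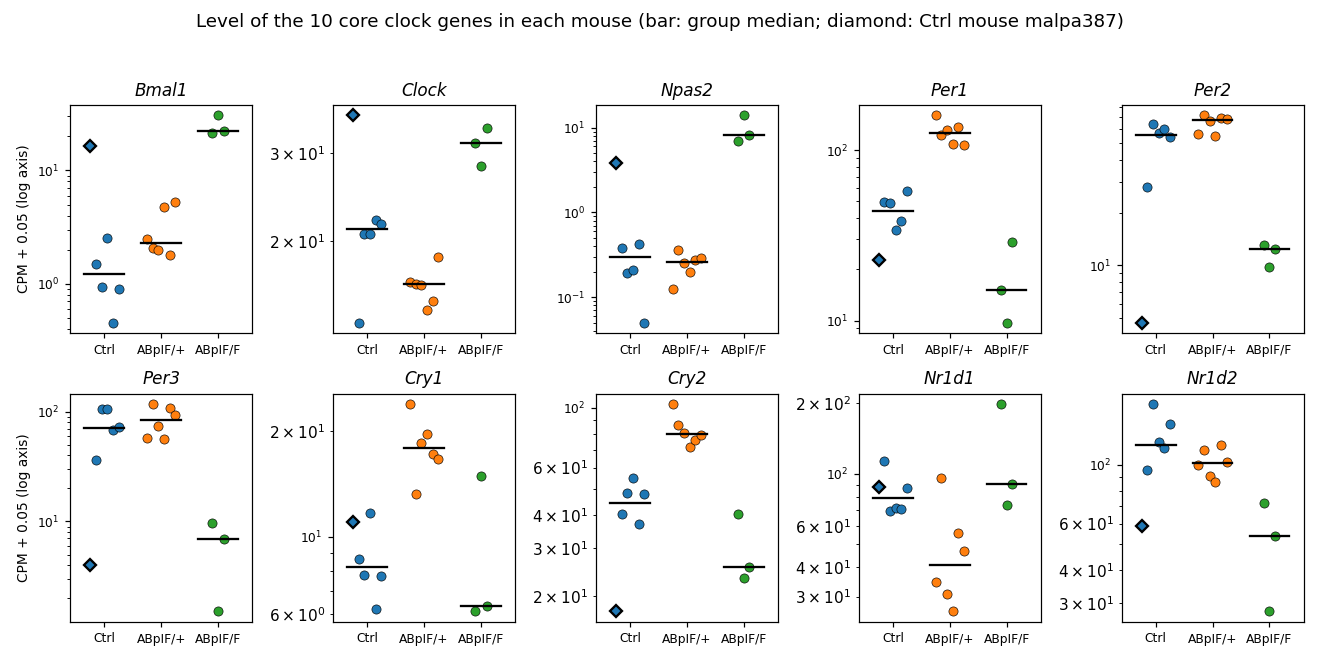
Level of each of the 10 clock genes in each of the 15 mice, in CPM plus 0.05 on a log axis, by group. Points are mice, bars are group medians and the diamond is Ctrl mouse malpa387. The 3 ABpIF/F mice lie above every ABpIF/+ mouse for Bmal1, Clock and Npas2 and below every ABpIF/+ mouse for Per1, Per2, Per3, Cry2 and Nr1d2, and malpa387 lies near the ABpIF/F mice for several genes.

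Among the activators, *Bmal1* and *Npas2* had their highest levels in ABpIF/F livers and were low in ABpIF/+ livers. *Bmal1* (Entrez 11865, chr7:113207465-113314126 on GRCm38, named *Arntl* in GENCODE M21), the partner shared by both activator pairs, was at 21.2, 30.6 and 22.1 CPM in the 3 ABpIF/F mice. In ABpIF/+ mice it ran from 1.76 through a median of 2.23 to 5.22 CPM, and in Ctrl mice from 0.404 through 1.16 to 16.4 CPM. The highest Ctrl value is that of malpa387, and the other 5 Ctrl mice reached at most 2.47 CPM. The ABpIF/F mice overlapped with neither other group. ABpIF/+ against ABpIF/F gave a log2 fold change of -3.03 ± 0.89 (SE), with an adjusted p of 0.0316 in edgeR's quasi-likelihood test, and that of ABpIF/F against Ctrl was 2.72 ± 0.88, with an adjusted p of 0.0517. Neither passed the threshold used here, an adjusted p under 0.01 with at least a 2-fold change. Without malpa387 both passed, at adjusted p of 0.000174 and 1.52e-05 by edgeR, and the change from Ctrl to ABpIF/F was 4.34 on the log2 scale. In ABpIF/+ against Ctrl, *Bmal1* gave -0.30 ± 0.79 with all mice and 1.32 ± 0.42 without malpa387, with edgeR adjusted p of 1 and 0.0326.

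*Npas2* (Entrez 18143, chr1:39193731-39363236), which can replace CLOCK as the partner of BMAL1, had the widest range between groups. It was at 6.92, 14.0 and 8.12 CPM in ABpIF/F mice, which came from 212, 391 and 293 reads. In ABpIF/+ mice it was between 0.0754 and 0.310 CPM with a median of 0.213, which came from 2 to 8 reads, and in Ctrl mice between 0 and 3.80 CPM with a median of 0.244. Again malpa387 gave the highest Ctrl value, and the other 5 reached 0.373 CPM. *Npas2* was lower in ABpIF/+ than in ABpIF/F livers by a log2 fold change of -5.56 ± 1.00 (SE), with an adjusted p of 0.00157 in edgeR. Against Ctrl, *Npas2* in ABpIF/F livers had a log2 fold change of 3.60 ± 0.89 and an edgeR adjusted p of 0.0118, which did not pass, and without malpa387 5.55 with an adjusted p of 3.27e-08.

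*Clock* (Entrez 12753, chr5:76209868-76304792), whose protein pairs with BMAL1, moved in the same direction over a narrower range. ABpIF/F mice had 31.4, 28.2 and 33.7 CPM. ABpIF/+ mice had 14.5 to 18.5 CPM with a median of 16.3, and Ctrl mice 13.7 to 35.7 with a median of 21.1. *Clock* did not overlap between ABpIF/+ and ABpIF/F mice, with a log2 fold change of -0.94 ± 0.18 (SE) and an edgeR adjusted p of 0.000798, which is just short of 2-fold. Both mutant groups overlapped with Ctrl, whose lowest value was that of BG3 and whose highest was that of malpa387. In ABpIF/F against Ctrl, *Clock* gave 0.48 ± 0.18 with an edgeR adjusted p of 0.0824. Without malpa387 the groups did not overlap, the other Ctrl mice reaching 22.0 CPM, and *Clock* gave 0.66 with an adjusted p of 0.00189, under 2-fold.

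The period genes, whose proteins inhibit the activators, were high where the activators were low. *Per1* (Entrez 18626, chr11:69095217-69109960) rose in ABpIF/+ livers, to 107 to 160 CPM with a median of 126, against 22.7 to 57.2 CPM with a median of 43.6 in Ctrl. The ABpIF/F mice had 15.0, 9.68 and 28.8 CPM. All ABpIF/+ mice were above all others. The log2 fold change of *Per1* was 1.61 ± 0.25 (SE) against Ctrl and 2.83 ± 0.34 against ABpIF/F, with edgeR adjusted p of 0.000107 and 4.03e-05. In ABpIF/F against Ctrl it was -1.22 ± 0.31 with an edgeR adjusted p of 0.0120, which did not pass, and -1.35 with an adjusted p of 0.00209 without malpa387.

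*Per2* (Entrez 18627, chr1:91415982-91459324), a period gene whose loss disrupts daily rhythms, was alike in most Ctrl and all ABpIF/+ mice. Ctrl mice had 4.65 to 63.9 CPM with a median of 55.5, and ABpIF/+ mice 54.5 to 72.0 with a median of 67.5. ABpIF/F mice had 13.0, 9.75 and 12.4 CPM. The only Ctrl mice under 50 CPM were malpa387 and BG3, at 4.65 and 28.0 CPM. For *Per2* the log2 fold change was 2.46 ± 0.59 (SE) in ABpIF/+ against ABpIF/F and -1.93 ± 0.58 in ABpIF/F against Ctrl, with edgeR adjusted p of 0.0111 and 0.0356. Without malpa387 both passed, at adjusted p of 2.51e-07 and 3.49e-07 by edgeR.

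*Per3* (Entrez 18628, chr4:151003652-151044665), whose product has a lesser part in the loop and whose promoter holds both D-boxes shown above, had the widest range of the period genes. Its level was 9.59, 1.46 and 6.81 CPM in ABpIF/F mice. It was 56.6 to 118 CPM with a median of 83.3 in ABpIF/+ mice and 3.95 to 107 with a median of 70.9 in Ctrl. All ABpIF/+ mice were above all ABpIF/F mice, and malpa387 lay within the ABpIF/F range. For *Per3* the log2 fold change in ABpIF/+ against ABpIF/F was 3.82 ± 0.90 (SE) with an edgeR adjusted p of 0.0101, just outside the threshold, and in ABpIF/F against Ctrl -3.46 ± 0.89 with 0.0160. Without malpa387 the adjusted p were 0.00066 and 0.000712 by edgeR.

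The cryptochrome genes rose in ABpIF/+ livers and did not show a common change in ABpIF/F livers. *Cry1* (Entrez 12952, chr10:85131700-85185064), the stronger repressor of the pair, had 13.2 to 23.9 CPM with a median of 17.9 in ABpIF/+ mice and 6.19 to 11.6 with a median of 8.15 in Ctrl mice. The groups did not overlap, and the log2 fold change was 1.05 ± 0.21 (SE) with an edgeR adjusted p of 0.000873. That is near the 2-fold limit, and the *Cry1* call was lost without malpa459 or BG55, at 0.96 and 0.955. ABpIF/F mice had 6.07, 14.8 and 6.29 CPM, so that BG90 lay above all Ctrl mice and the other two at the low end of Ctrl. *Cry1* in ABpIF/F against Ctrl gave 0.04 ± 0.26 with an edgeR adjusted p of 1.

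*Cry2* (Entrez 12953, chr2:92403646-92434043) had 71.4 to 103 CPM with a median of 79.9 in ABpIF/+ mice and 17.4 to 54.8 with a median of 44.1 in Ctrl. ABpIF/F mice had 40.2, 23.2 and 25.6 CPM, within the Ctrl range, whose low end is malpa387. The other 5 Ctrl mice had 37.0 to 54.8 CPM. In ABpIF/F against Ctrl the log2 fold change was -0.46 ± 0.26, and -0.62 ± 0.18 without malpa387. The edgeR adjusted p were 0.297 and 0.0158, and neither passed. ABpIF/+ mice were above all others. The log2 fold change of *Cry2* was 1.02 ± 0.21 (SE) against Ctrl and 1.48 ± 0.28 against ABpIF/F, with edgeR adjusted p of 0.00132 and 0.000998. Without malpa387, the lowest Ctrl mouse, the first value was 0.86 with an adjusted p of 9.27e-05, under the 2-fold limit. Without malpa459 or BG55 it was 0.99 and 0.94, and these calls were lost as well. *Cry2* shares 295 exonic bases with *D930015M05Rik* on the opposite strand, which was at no more than 2.01 CPM in any mouse.

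The REV-ERB genes did not move as a pair. *Nr1d1* (Entrez 217166, chr11:98767932-98775333) had 25.9 to 96.5 CPM with a median of 40.8 in ABpIF/+ mice, 69.7 to 114 with a median of 79.0 in Ctrl, and 199, 73.7 and 90.5 in ABpIF/F mice. All groups overlapped. Of the ABpIF/+ mice only BG40 was within the range of Ctrl. The log2 fold change of *Nr1d1* in ABpIF/+ against ABpIF/F was -1.32 ± 0.38 (SE) with an edgeR adjusted p of 0.0273, and in ABpIF/+ against Ctrl -0.78 ± 0.33 with 0.104. *Nr1d1* shares 263 exonic bases with *Thra* on the opposite strand, which was at 6.19 to 15.8 CPM. The strand setting of the counting is not given in the sources used here, so reads in the shared bases may come from either gene.

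*Nr1d2* (Entrez 353187, chr14:18204054-18239127) fell in ABpIF/F livers, with 71.6, 27.9 and 53.8 CPM against 58.8 to 170 with a median of 119 in Ctrl. ABpIF/+ mice had 86.0 to 119 CPM with a median of 101 and did not overlap with ABpIF/F mice, whereas malpa387 at 58.8 CPM did. Fitted by edgeR, the log2 fold change of *Nr1d2* in ABpIF/F against Ctrl was -1.20 ± 0.29 (SE) with an edgeR adjusted p of 0.00775. This call was lost when any of 11 mice was left out in turn and held without BG88, BG175 or BG183, and without malpa387, at -1.34 with an adjusted p of 0.000458. In ABpIF/+ against ABpIF/F *Nr1d2* gave 0.99 ± 0.29 with an edgeR adjusted p of 0.0234, and 0.00437 without malpa387, still under 2-fold.

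Read as counts, 3 of the 10 members rose in ABpIF/+ against Ctrl, *Per1*, *Cry1* and *Cry2*, where 4.69% of all genes rose, and 0 fell, where 5.35% fell, by edgeR. DESeq2 also called 3 higher and 0 lower, with 5.14% of all genes higher and 6.21% lower. Here and below, shares of all genes are over 27179 genes, of which 20380 had a read in any mouse and 12316 reached 1 CPM. Genes without reads cannot be called, so each share would be higher over genes with reads, as the members are. In all, 5 members had an unadjusted p under 0.05 by edgeR, as had 33.5% of all genes. At an adjusted p under 0.05 with any fold, *Clock* joined *Per1*, *Cry1* and *Cry2*, as lower, making 4 of 10 members against 25.5% of all genes. By edgeR without malpa387, *Clock* had an adjusted p of 0.102, and *Bmal1*, then higher, had 0.0326. The 3 risen members were also the ones whose groups did not overlap, against 31.3% of the 12316 genes whose mean reached 1 CPM. With the strain label as a covariate 0 members passed, the edgeR adjusted p of *Per1*, *Cry1* and *Cry2* being 0.136, 0.163 and 0.197 at log2 fold changes of 1.35, 1.09 and 1.04. In that fit BG3 is the only Ctrl mouse that shares the mutants' label. BG3 itself had 49.8 CPM of *Per1*, 8.57 of *Cry1* and 40.4 of *Cry2*, each below every ABpIF/+ mouse.

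In ABpIF/F against Ctrl 1 member fell, *Nr1d2*, where 2.38% of all genes fell. By edgeR 0 rose, where 4.55% of all genes rose, and 7 members had an unadjusted p under 0.05, as had 26.4% of all genes. DESeq2 called 1 member higher and 4 lower, with 5.4% of all genes higher and 2.84% lower. At an adjusted p under 0.05 with any fold the count was 1 higher and 4 lower, 5 of 10 against 17.1% of all genes. The groups of 2 members did not overlap, *Bmal1* and *Npas2*, against 31.6% of genes. Without malpa387, an alternative that follows from these same values, 7 members did not overlap, 3 higher and 4 lower, against 36.5% of genes. The members then called by edgeR numbered 6, with *Bmal1* and *Npas2* higher, where 4.59% of all genes were, and *Per1*, *Per2*, *Per3* and *Nr1d2* lower, where 2.5% were.

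In ABpIF/+ against ABpIF/F 2 members were higher, *Per1* and *Cry2*, where 1.76% of all genes were, and 1 was lower, *Npas2*, where 5.49% were. At an adjusted p under 0.05 with any fold all 10 members passed, 6 higher and 4 lower, against 18.2% of all genes. The groups of 8 members did not overlap, 5 higher and 3 lower, against 34.2% of genes. The median absolute log2 fold change over the members was 1.97, against 0.36 over genes of at least 1 CPM. Without malpa387, which belongs to neither group and enters only through the shared estimate of the spread, 6 were called, 4 higher, where 1.82% of all genes were, and 2 lower, where 5.44% were. The comparisons share the Ctrl or the mutant mice with each other and are not independent. Because the members were chosen with earlier results of these data known, their counts against all genes are descriptions and not independent tests.

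**Figure D2:**
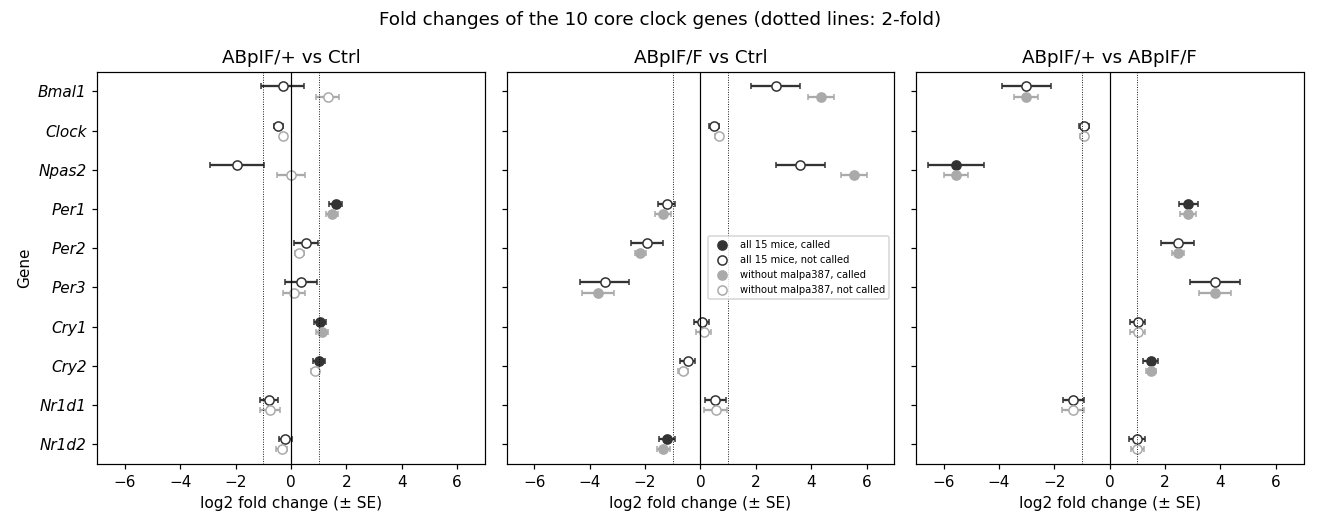
Log2 fold change of each clock gene with its standard error in the 3 comparisons, with all 15 mice (dark) and without Ctrl mouse malpa387 (grey). Filled points passed an adjusted p under 0.01 with at least a 2-fold change, and dotted lines mark 2-fold. Leaving out malpa387 moves Bmal1 in ABpIF/F vs Ctrl from 2.72 to 4.34 and Npas2 from 3.60 to 5.55.

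The Ctrl mice were not alike. Leaving out malpa387 took the Ctrl SD from 6.25 to 0.793 CPM for *Bmal1* and from 1.47 to 0.151 for *Npas2*, but only from 2.09 to 2.01 for *Cry1*, and for *Nr1d1* it went from 17.0 to 18.9. Against the mean of the other 5 Ctrl mice, malpa387 had 18.9 times as much *Npas2*, 13.6 times as much *Bmal1* and 1.81 times as much *Clock*. The mean of the other 5 was 19.8 times its *Per3*, 11.3 times its *Per2*, 2.62 times its *Cry2* and 2.01 times its *Per1*. Its *Nr1d2* was 0.455 times their mean. Its *Nr1d1* and *Cry1* lay within their range, at 1.06 and 1.31 times their mean. Among the ABpIF/F mice BG90 had the highest *Bmal1*, *Npas2* and *Cry1* and the lowest *Clock*, *Per1*, *Per2*, *Per3*, *Cry2*, *Nr1d1* and *Nr1d2*. The ABpIF/+ mice were the most alike in *Clock*, *Per1*, *Per2*, *Cry2* and *Nr1d2*, and *Nr1d1* varied the most among them. Whether the hour of sampling differed between these mice was not tested, as no source used here gives it.

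**Figure D3:**
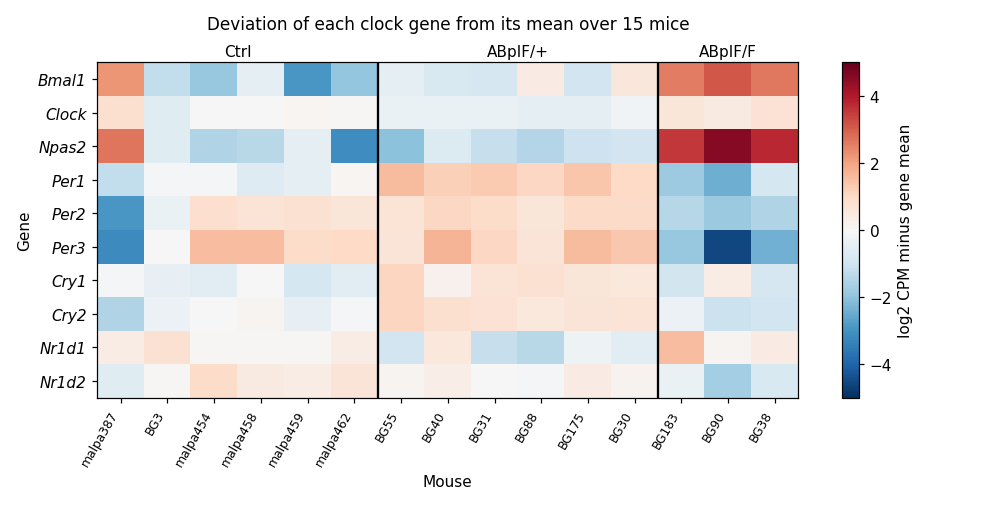
Deviation of each clock gene's log2 CPM from its mean over the 15 mice, with mice as columns by group and genes as rows. Red is above and blue below the mean of the gene. The columns of the 3 ABpIF/F mice and of Ctrl mouse malpa387 are red for Bmal1, Clock and Npas2 and blue for Per1, Per2 and Per3, while the 6 ABpIF/+ columns are red for Per1, Per2, Per3 and Cry2.

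Ratios within a mouse do not depend on its library size. The log2 ratio of *Bmal1* to *Per3* reads, with 0.5 added to each count, was 1.14, 4.37 and 1.70 in the ABpIF/F mice and 2.05 in malpa387. It lay between -5.92 and -3.58 in the ABpIF/+ mice and between -7.36 and -4.65 in the other 5 Ctrl mice. The sign of this ratio was thus positive in 4 mice and negative in 11. The ratio of *Per1* to *Per2* reads was 1.56 to 2.85 in ABpIF/+ mice and 0.595 to 1.78 in the Ctrl mice other than malpa387, which had 4.88, so these groups overlapped. *Nr1d1* exceeded *Nr1d2* in reads in all 3 ABpIF/F mice, by 2.77, 2.64 and 1.68 times, and in malpa387 and BG3, by 1.49 and 1.20 times. In all 6 ABpIF/+ mice it was below, at 0.301 to 0.851 times.

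**Figure D4:**
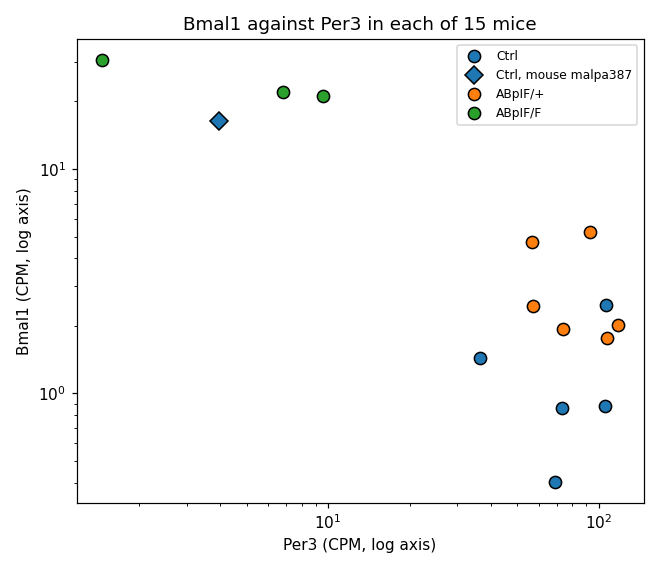
Bmal1 against Per3 in CPM, both on log axes, with 1 point for each of the 15 mice. The ABpIF/F mice and Ctrl mouse malpa387 lie at high Bmal1 and low Per3, at 16.4 to 30.6 CPM and at most 9.59 CPM, and the other 11 mice lie at low Bmal1 and high Per3.

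Per kilobase of exon, the order of the members also differed between groups. In Ctrl the highest median was that of *Nr1d1*, at 25.7 CPM per kilobase, followed by *Nr1d2* at 22.0 and *Per2* at 9.48. In ABpIF/+ livers *Per1* led with 22.4, followed by *Nr1d2* at 18.7 and *Nr1d1* at 13.3. In ABpIF/F livers *Nr1d1* led with 29.4, *Nr1d2* had 9.94, and *Cry2* and *Bmal1* came next with 4.05 and 2.94. *Npas2* was the lowest in Ctrl and ABpIF/+ livers, at 0.0510 and 0.0444 CPM per kilobase, and *Per3* in ABpIF/F livers, at 0.709. Neighbours in this order whose values per mouse overlap, such as *Nr1d1* and *Nr1d2* in Ctrl, were not told apart.

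Genes that regulate the clock or follow it were taken as lists. Of 21 clock regulators, which include nuclear receptors, kinases and corepressors, 2 rose and 1 fell in ABpIF/+ against Ctrl, 4 fell in ABpIF/F against Ctrl, and 4 were higher in ABpIF/+ than in ABpIF/F. Over all genes these shares were 4.69% and 5.35%, 2.38%, and 1.76%. *Ciart*, a repressor of the activator pair and an E-box gene, had 17.7 to 37.0 CPM in ABpIF/+ mice and 1.17, 0.679 and 0.249 in ABpIF/F mice. In Ctrl it was at 0.335 CPM in malpa387 and at 14.3 to 21.8 in the other 5.

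Of 20 clock output genes, 3 fell in ABpIF/+ against Ctrl, 11 fell in ABpIF/F against Ctrl, and 11 were higher and 2 lower in ABpIF/+ against ABpIF/F by edgeR. Over all genes 5.35%, 2.38%, 1.76% and 5.49% were called in these directions. The median log2 fold changes were -0.19, -1.94 and 2.29, and those over all genes were 0.0. Without malpa387, an alternative chosen after the data were seen, 14 fell in ABpIF/F against Ctrl, where 2.5% of all genes fell. In ABpIF/+ against ABpIF/F 13 were then higher, where 1.82% of all genes were, and 2 lower, where 5.44% were. In ABpIF/+ against Ctrl 4 fell, and the share of all genes without that mouse is not given here. *Usp2*, a deubiquitinase that stands in both lists, had 0.424, 0.965 and 1.25 CPM in ABpIF/F mice, 33.3 to 71.8 in ABpIF/+ mice and 59.9 to 101 in Ctrl apart from malpa387, at 3.69. Its log2 fold change in ABpIF/F against Ctrl was -6.21 ± 0.93 (SE) with an edgeR adjusted p of 0.000414. *Noct*, a rhythmic phosphatase, had 1.60, 1.64 and 1.86 CPM in ABpIF/F mice and 27.8 to 75.8 in Ctrl, malpa387 at 36.9 included, with a log2 fold change of -5.01 ± 0.78 and an edgeR adjusted p of 0.000542. *Dbp*, the D-box factor, was chosen after its values were seen, and had 32.9, 0.893 and 9.67 CPM in ABpIF/F mice, 3.69 in malpa387, 95.3 to 141 in the other Ctrl mice and 58.2 to 114 in ABpIF/+ mice.

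**Figure D5:**
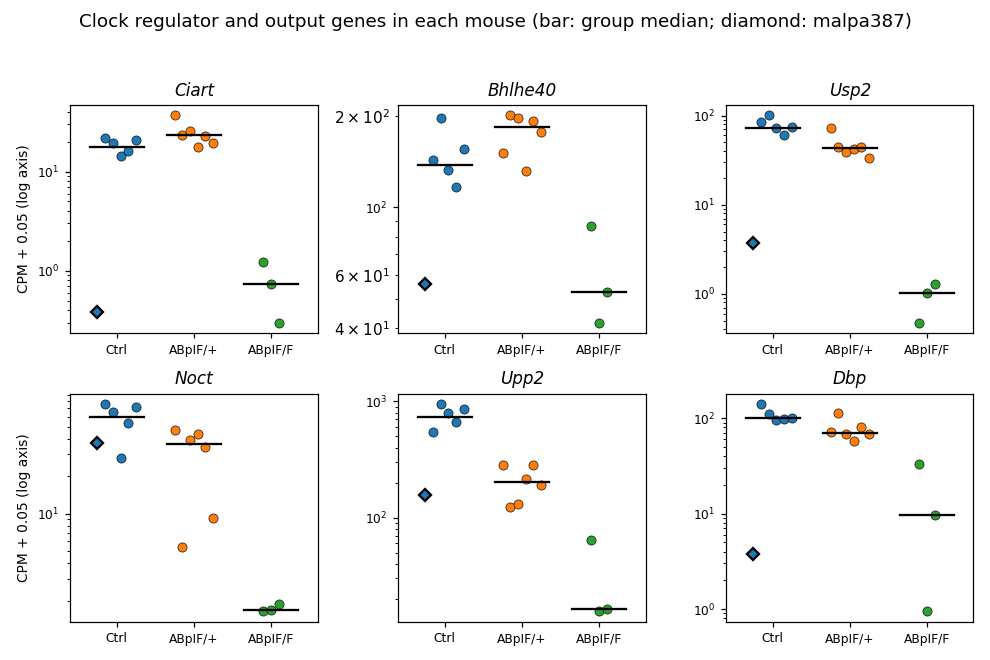
Level of 6 clock regulator and output genes in each mouse, in CPM plus 0.05 on a log axis, by group. Points are mice, bars are group medians and the diamond is Ctrl mouse malpa387. All 3 ABpIF/F mice lie below every ABpIF/+ mouse in all 6 genes, and malpa387 lies below the other Ctrl mice for Ciart, Bhlhe40, Usp2, Upp2 and Dbp but not for Noct.

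Genes that answer signals known to reach the liver clock differed too, and their part in the clock genes was not tested. The paper reports weight loss and signs of illness in ABpIF/+ mice, but in neither Ctrl nor ABpIF/F mice. The part of body condition in these genes, in the food intake genes below and in the clock genes was not tested. Of 12 glucocorticoid-induced genes 6 rose in ABpIF/+ against Ctrl by edgeR, 1 rose and 3 fell in ABpIF/F against Ctrl, and 5 were higher in ABpIF/+ against ABpIF/F. The shares of all genes called, given above for each comparison, are the background for these lists and for the cell type markers as well. *Fkbp5*, a chaperone partner of the glucocorticoid receptor, had 251 to 444 CPM in ABpIF/+, 28.1 to 118 in Ctrl and 78.2 to 81.6 in ABpIF/F mice, with a log2 fold change of 2.16 ± 0.24 (SE) in ABpIF/+ against Ctrl and an edgeR adjusted p of 2.03e-06. Not every such gene rose, since *Tsc22d3* had 62.2 to 102 CPM in ABpIF/+ and 59.1 to 148 in Ctrl mice. Of 13 temperature-responsive genes 2 rose and 4 fell in ABpIF/+ against Ctrl, and 1 rose and 3 fell in ABpIF/F against Ctrl. The cold-inducible *Rbm3* had 85.2 to 125 CPM in ABpIF/+, 17.9 to 23.6 in Ctrl and 31.0 to 49.9 in ABpIF/F mice. *Cirbp*, also induced by cold, had 37.0 to 71.9, 11.0 to 20.3 and 33.8 to 49.5 CPM, and the heat shock genes *Hspb1* and *Hspa1b* fell in ABpIF/+ against Ctrl by log2 fold changes of -2.95 ± 0.21 and -2.80 ± 0.41.

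Genes that follow food intake were called in both mutant groups. Of 15 fasting-induced genes 3 rose and 4 fell in ABpIF/+ and 2 rose and 6 fell in ABpIF/F, both against Ctrl. *Igfbp1*, which rises in fasted liver, had a log2 fold change of 5.45 ± 0.53 (SE) in ABpIF/+ and 3.85 ± 0.53 in ABpIF/F. *Acot1*, of the same list, went the other way in both, by -1.67 ± 0.40 and -3.34 ± 0.58. Of 14 feeding-induced genes 1 rose and 7 fell in ABpIF/+, and 7 fell in ABpIF/F by edgeR. The lipogenic *Me1* fell in both, by -3.85 ± 0.18 and -4.10 ± 0.24 on the log2 scale.

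The markers of liver cell types also differed. The 8 hepatocyte markers summed to 110043 to 149990 CPM in Ctrl, 209062 to 290475 in ABpIF/+ and 168488 to 262037 in ABpIF/F mice, and 3 rose in each mutant group against Ctrl by edgeR. *Alb* made up most of this sum in every mouse, with 76790 to 104893, 128868 to 186385 and 100260 to 181278 CPM in these groups. The 8 stellate and fibroblast markers summed to 172 to 239 CPM in Ctrl, 40.1 to 86.6 in ABpIF/+ and 156 to 270 in ABpIF/F mice, and 7 of 8 fell in ABpIF/+ against Ctrl. The 8 macrophage and Kupffer cell markers summed to 317 to 443, 131 to 228 and 264 to 586 CPM, with 4 of 8 lower in ABpIF/+ than in Ctrl. The 7 cholangiocyte markers summed to 36.5 to 68.8, 30.6 to 146 and 206 to 1155 CPM, with 5 of 7 higher in ABpIF/F than in Ctrl, and malpa387 had the highest Ctrl value. Most of that sum in every mouse was *Spp1*, with 175, 724 and 1081 CPM in the ABpIF/F mice. In ABpIF/+ against Ctrl *Sox9* rose and *Krt19* fell, by log2 fold changes of 2.61 ± 0.23 and -1.21 ± 0.34. Without malpa387, 0 of the 7 were called lower in that comparison. In ABpIF/F against Ctrl 4 were then called higher, where 4.59% of all genes were. The 8 lymphocyte markers summed to 3.64 to 5.95, 0.812 to 2.78 and 5.18 to 13.1 CPM, and the 8 endothelial markers to 209 to 308, 96.0 to 220 and 237 to 332 CPM, with 3 and 2 of 8 lower in ABpIF/+ than in Ctrl. No marker was at 0 in every mouse. The part of these cell types in the levels of the clock genes was not tested.

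Of 9559 other genes whose mean reached 5 CPM, those most like *Bmal1* by the Pearson correlation of log2 CPM over the 15 mice were *Dennd2b* (r = 0.947), *Tjp3* (0.929), *Chka* (0.924), *Net1* (0.906) and *Zfp414* (0.906). The most opposite were *Mtss1* (-0.943), *Slc5a6* (-0.940), *Alas1* (-0.936), *Pik3r1* (-0.927) and *Zfp970* (-0.916). *Alas1*, the rate-limiting enzyme of heme synthesis in liver, is also a gene of the output list. Among the members, *Npas2* had an r of 0.854 with *Bmal1*, *Nr1d2* -0.857, *Per3* -0.837 and *Per2* -0.801. *Cry1* and *Nr1d1* had 0.03 and 0.238. These values are a description over mice of 3 groups, which share the differences between groups. Within the 6 ABpIF/+ mice, where *Bmal1* ranged over 1.76 to 5.22 CPM, the r of *Dennd2b* was 0.638 and that of *Tjp3* -0.170.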

How the data were processed

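Livers of 15 female mice were profiled by stranded mRNA sequencing. The authors aligned the reads to mm10 with HISAT2 and used featureCounts 2.0.8 for counting. Raw counts per gene were deposited, not normalized, in 1 column per mouse, although 23 samples are listed and 8 mice are named by 2 samples. Column names were matched to the mice named in the labels. Both deposited tables hold equal counts for all 27179 genes in the 10 columns compared, and 5 columns of the table with symbols, named by numbers, were not used. That table also holds the authors' own fold changes and p-values, which were not used. Of the genes, 1319 had no symbol.

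The test was that of edgeR 4.0.16 under R 4.3.3 (quasi-likelihood F-test in the form of edgeR 3.36, TMM, robust, 3 groups in 1 fit, no filter), with p-values adjusted by Benjamini-Hochberg over all genes. Calls needed an adjusted p under 0.01 and at least 2-fold. DESeq2 1.42.0 was an alternative. The SE given with an edgeR log2 fold change is its absolute value divided by the square root of the F statistic. Log2 CPM used a prior count of 2. On simulated counts the fit was tested for known changes. Positions came from GENCODE M21 on GRCm38. Named were all members, genes overlapping them, up to 4 called genes per list and comparison with at least 1 CPM, and the 5 genes most and least like *Bmal1*. Not every such gene is printed. Members and lists were chosen with earlier results of these data known. Alternatives are named in the closing section. Precision is given by the spread between mice and covers no time of day.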

Additional observations from a re-analysis of the deposited data

Results flagged for a closer look

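In the Ctrl group, the mouse malpa387 lay far from the other 5 mice in 3 clock genes by the gap that Dixon's test uses. Chance marks about 1 in 20 groups, but that rate does not apply to a mouse already known to differ in these genes, so the values are a description. Its *Per2* was 4.65 CPM against 28.0 to 63.9 in the other Ctrl mice. Its *Per3* was 3.95 CPM against 36.5 to 107. Its *Cry2* was 17.4 CPM against 37.0 to 54.8. Over the 12316 genes whose mean reached 1 CPM the same mouse lay as far from its group in 2.34%, BG3 in 2.78%, and each of the other Ctrl and ABpIF/+ mice in 0.219% to 1.76%. The 3 ABpIF/F mice were too few for this test.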

How the results depend on the processing

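Calls of the clock genes depended on settings more than their directions did. In ABpIF/+ against Ctrl the count of 3 members became 2 among genes passing filterByExpr, 4 at an adjusted p under 0.05 with any fold, 0 at 4-fold and 0 with the strain label as a covariate, and 1 to 4 when each mouse was left out (1 without malpa459 and 1 without BG55). In ABpIF/F against Ctrl the count of 1 became 5 by DESeq2, 4 among genes passing filterByExpr, 2 with the quasi-likelihood of edgeR 4, 6 without robust estimation, 0 at 4-fold, 5 at an adjusted p under 0.05, 5 at that p with any fold, 0 with only the groups compared, and 0 to 6 leaving out each mouse (6 without malpa387 and 2 without BG175). In ABpIF/+ against ABpIF/F the count of 3 became 6 by DESeq2, 6 with filterByExpr, 6 with edgeR 4, 8 without robust estimation, 8 at an adjusted p under 0.05, 10 at that p with any fold, 6 with only the groups compared, and 2 to 6 leaving out each mouse (5 without BG40 and 5 without BG90). Over all genes, the 2729, 1883 and 1969 calls became 1095, 856 and 855 at 4-fold and 6924, 4637 and 4942 at an adjusted p under 0.05 with any fold. With the strain label the first 2 became 1357 and 1148, and leaving out each mouse gave 2525 to 2778, 1212 to 2276 and 1155 to 2048, the lowest of the last 2 without BG38. DESeq2 called 3084 genes in ABpIF/+ against Ctrl, and 1469 higher and 772 lower in ABpIF/F against Ctrl. Totals over all genes are not printed for every setting. A count of members that changed with a setting is therefore not shown to be particular to the clock genes. Log2 fold changes that turned sign were none of them called. In ABpIF/+ against Ctrl, *Bmal1* turned to 1.32 without malpa387 (range leaving out each mouse -0.54 to 1.32), and *Bmal1*, *Clock* and *Nr1d2* to 1.07, 0.25 and 0.10 with the strain label. In ABpIF/F against Ctrl, *Cry1* turned to -0.0084 with filterByExpr, to -0.04 without malpa459, -0.02 without BG175 and -0.51 without BG90 (range -0.51 to 0.26), and *Nr1d1* to -0.022 without BG183 (range -0.022 to 0.79). The causes were not tested. Of the other fold changes 581 kept direction and side of the threshold, 47 gained and 23 lost the call. RLE size factors left the 3 counts of members as they were. The other deposited table was not refitted, as its comparable columns hold equal counts. No paired analysis was possible because the columns carry mouse names and no replicate numbers shared between groups. With 3 ABpIF/F mice, small changes of low genes such as *Npas2* in ABpIF/+ (2 to 8 reads) cannot be resolved at this depth.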

Other observations

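The paralog *Bmal2*, a regulator with low levels, had 0.868 to 4.10 CPM in ABpIF/+, 2.27 to 2.61 in ABpIF/F and 0.261 to 1.24 in Ctrl mice, with a log2 fold change of 1.63 ± 0.38 (SE) in ABpIF/+ against Ctrl and an edgeR adjusted p of 0.00216. *Fbxl21*, an F-box gene of the family that acts on CRY proteins, had 6.40 to 8.82 CPM in Ctrl, 0.663 to 2.37 in ABpIF/+ and 2.46 to 4.18 in ABpIF/F mice. It fell in ABpIF/+ and in ABpIF/F against Ctrl, by log2 fold changes of -2.14 ± 0.24 and -1.12 ± 0.29, with edgeR adjusted p of 3.82e-07 and 0.00799. Among output genes *Cyp7a1*, the rate-limiting enzyme of bile acid synthesis, fell in both, by -2.63 ± 0.57 and -5.09 ± 0.87, with edgeR adjusted p of 0.00344 and 0.00111, and malpa387 at 99.3 CPM was the lowest of the Ctrl mice.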
